A study of Mus musculus with 8 samples.

Results

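Scavenger and efferocytosis receptors other than CD36 were followed in brown adipose tissue (BAT) by bulk RNA-seq. The set holds 10 genes, 9 receptors or membrane proteins and 1 bridging factor, picked by name from the 31053 gene identifiers of the count table: Msr1, Scarb1, Scarb2, Lrp1, Mrc1, Cd163, Stab1, Mertk, Axl and Mfge8. The study compared 4 WT libraries with 4 Cd36KO libraries, all from C57BL6/J mice given as 8 weeks old in the labels. The labels state the genotype only as Cd36KO. The study made a germline knockout as well as mice in which floxed Cd36 was removed by a Cre driven by Csf1r, a gene of the macrophage lineage, and it names the conditional mice as the source of this BAT transcriptome. Its methods put the age of the conditional mice at 10 weeks when they were killed. The question asked here was whether other clearance receptors were higher or lower in the Cd36KO libraries.

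Scavenger receptors bind modified lipoproteins, haemoglobin complexes and cell debris and carry them to the lysosome. Efferocytosis is the removal of dying cells: bridging proteins such as MFGE8, GAS6 and protein S attach to phosphatidylserine on the dying cell, and integrins or the TAM receptors (TYRO3, AXL and MERTK) on the phagocyte bind the bridge. In adipose tissue both tasks fall mainly to macrophages, while several of these receptors are also made by endothelial cells, fibroblasts or adipocytes, so a bulk level cannot tell fewer cells of a type from less RNA per cell.

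Total counts per library ran from 2679785 to 4097953. The cell type given in the labels is the stromal vascular fraction, yet Ucp1 and Cidea, which mark brown adipocytes, were among the abundant genes in every library (in WT, mean normalized counts of 5347 ± 1246 and 8451 ± 1429, SD, n = 4), so the libraries are described as tissue. The methods state that all mice were male, whereas Xist, the RNA of the inactive X chromosome, had 772 to 1588 counts in each of the 8 libraries and 4 Y-linked genes had 3 counts in all. WT replicate 1 stood apart: its skeletal muscle markers summed to 85899 normalized counts, where WT replicates 2 to 4 had 1402 to 15694, and its white adipocyte markers to 1201, where the others had 5084 to 6138. The log2 fold changes of the members and of the called partner genes named below are therefore also given without it. The labels do not tie libraries to mice, but the study's legend counts the replicates of each group as separate mice.

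Cd36 itself (chr5:17781690-17888801, minus strand, GRCm38) was lower but far from absent. Normalized counts (each count over its library's DESeq2 size factor) were 2796, 2958, 3505 and 2412 in WT replicates 1 to 4. They were 1926 in the Cd36KO library whose column carries no number and 2109, 2384 and 1930 in Cd36KO replicates 2 to 4. The WT mean was 2918 ± 454 and the Cd36KO mean 2087 ± 216 (SD, n = 4 each). The groups did not overlap, and the log2 fold change was -0.48 (SE 0.16, DESeq2 adjusted p = 0.0602). Adipocytes and endothelial cells also express Cd36.

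The members on which the results turn are Lrp1, Cd163, Mertk and Mrc1, all on the lower side in Cd36KO. The 250 bases before their RefSeq start sites (GRCm38.p6) are printed because these are the members with an unadjusted p under 0.05, 5′ to 3′ on the gene's strand, for Lrp1 at chr10:127621149-127621398 (minus), Cd163 at chr6:124304401-124304650 (plus), Mertk at chr2:128698665-128698914 (plus) and Mrc1 at chr2:14229164-14229413 (plus). Capitals mark GC boxes (GGGCGG or its complement CCGCCC) and ETS cores of the kind PU.1 binds (GAGGAA or TTCCTC).
Lrp1: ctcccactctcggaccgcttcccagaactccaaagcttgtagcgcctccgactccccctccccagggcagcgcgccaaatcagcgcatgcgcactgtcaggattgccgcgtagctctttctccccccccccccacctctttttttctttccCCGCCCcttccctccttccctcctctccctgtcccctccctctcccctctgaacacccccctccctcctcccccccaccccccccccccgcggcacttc
Cd163: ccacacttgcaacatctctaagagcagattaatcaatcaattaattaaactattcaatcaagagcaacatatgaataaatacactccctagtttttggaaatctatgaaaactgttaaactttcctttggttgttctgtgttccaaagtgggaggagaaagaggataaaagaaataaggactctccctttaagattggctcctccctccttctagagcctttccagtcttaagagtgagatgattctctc
Mertk: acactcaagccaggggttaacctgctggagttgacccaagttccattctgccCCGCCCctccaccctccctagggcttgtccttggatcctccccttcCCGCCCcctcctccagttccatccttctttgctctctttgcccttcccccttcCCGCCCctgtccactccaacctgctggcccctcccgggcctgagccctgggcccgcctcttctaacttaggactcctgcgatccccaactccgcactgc
Mrc1: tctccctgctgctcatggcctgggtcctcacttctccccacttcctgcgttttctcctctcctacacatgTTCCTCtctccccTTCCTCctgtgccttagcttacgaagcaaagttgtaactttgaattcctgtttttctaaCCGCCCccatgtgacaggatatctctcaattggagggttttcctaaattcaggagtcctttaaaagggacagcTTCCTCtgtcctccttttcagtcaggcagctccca
Besides these motifs, a MAF core (letters TGCTGA or TCAGCA) and a TATA box (TATAAA or TTTATA) were searched on both strands, and no matches overlapped one another. The Lrp1 window held 1 GC box, the Mertk window 3 GC boxes, and the Mrc1 window 3 ETS cores and 1 GC box. The Cd163 window held none of the 4 motifs and was the poorest in G and C, at 36.8% against 67.2% for Lrp1, 63.6% for Mertk and 49.6% for Mrc1. Among all 32851 RefSeq windows of this length, 32.7% held a GC box, 23.3% an ETS core, 16.1% a MAF core and 12.4% a TATA box, and the median G and C content was 52.4%. None of the searched motifs was in all 4 windows. RefSeq windows were matched for 8 of the 10 members, of which 6 held a GC box, 4 an ETS core and 2 (Scarb2 and Stab1) a MAF core.

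Of the 10 members, 2 fell in Cd36KO, Lrp1 and Cd163, and none of the 9 members with enough counts for an adjusted p rose. Over all genes, DESeq2 called 2.95% of 9619 tested genes at an adjusted p under 0.05, 1.53% lower and 1.42% higher. At an unadjusted p under 0.05, 4 members were lower (Lrp1, Cd163, Mertk and Mrc1) and 0 higher, against 7.88% of tested genes lower. The groups did not overlap for 3 members, all lower, whereas 8.76% of tested genes had groups that did not overlap, 3.93% with Cd36KO below WT and 4.83% above it. The median log2 fold change over the 9 tested members was -0.24, beside -0.01 for all tested genes, and 5 of the 9 lay below 0, beside 50.8% of tested genes. With Msr1 included the median over the 10 members was -0.07. The edgeR and limma tests called 0 members (background 0.143% and 0.0461% of their genes).

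**Figure D1:**
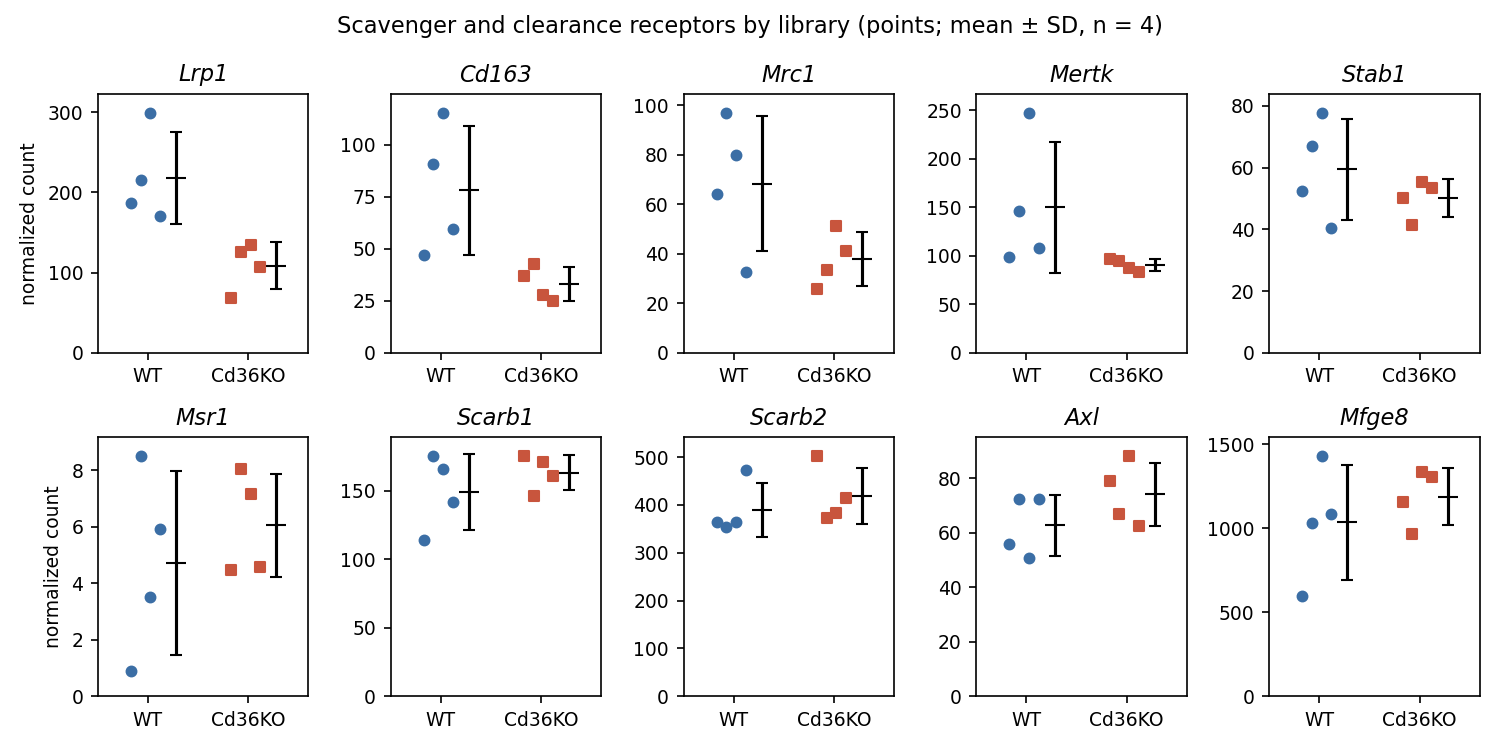
Normalized counts (vertical axes, from 0) of the 10 genes in the 4 WT (circles) and 4 Cd36KO (squares) libraries, with mean ± SD to the right of the points. Lrp1 and Cd163 were lower in every Cd36KO library, the Mertk groups were separated narrowly, and the other 7 genes overlapped.

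Lrp1 (ENSMUSG00000040249, chr10:127538161-127621148, minus strand) encodes the low-density lipoprotein receptor-related protein 1, a large endocytic receptor that takes up apolipoprotein E-rich remnants, protease complexes and calreticulin-tagged apoptotic cells. Its normalized counts were 187, 215, 299 and 171 in WT replicates 1 to 4, and 68.0, 125, 135 and 107 in the unnumbered Cd36KO library and Cd36KO replicates 2 to 4. Every Cd36KO library lay below every WT library, with the unnumbered library lowest and WT replicate 3 highest. The mean of 109 ± 29.6 in Cd36KO compares with 218 ± 56.9 in WT (SD, n = 4 each), so the level fell by 50.1%. The log2 fold change was -0.999 (SE 0.26, DESeq2 adjusted p = 0.0106), and the exact two-sided permutation p was 0.0286, the smallest that 4 against 4 libraries allow. Without WT replicate 1 it was -1.07 (DESeq2 adjusted p = 0.00419). The adjusted p was 0.108 in edgeR and 0.127 in limma, and when each library was left out in turn Lrp1 stayed called in 4 of 8 DESeq2 fits. With a white adipocyte marker score as a covariate it was -0.93 and not called (DESeq2 adjusted p = 0.190). A replicate block on the numbered libraries also ended the call (-0.87, DESeq2 adjusted p = 0.0580).

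Cd163 (ENSMUSG00000008845, chr6:124304656-124330527, plus strand) encodes the receptor for haptoglobin-haemoglobin complexes, a marker of tissue-resident macrophages. WT replicates 1 to 4 had 46.9, 90.9, 115 and 59.3 normalized counts, and the Cd36KO libraries 36.8 (unnumbered), 42.6, 27.6 and 25.2 (replicates 2 to 4). The groups did not overlap, though WT replicate 1 was only slightly above Cd36KO replicate 2. Mean levels were 78.1 ± 30.9 and 33.0 ± 8.09 (SD, n = 4 each), and the level fell by 57.7%. The log2 fold change was -1.25 (SE 0.34, DESeq2 adjusted p = 0.0183, exact two-sided permutation p = 0.0286), and -1.43 without WT replicate 1 (DESeq2 adjusted p = 0.00131). With a white adipocyte marker score as a covariate it was -0.33 and no longer called (DESeq2 adjusted p = 0.782). The adjusted p was 0.110 in edgeR and 0.170 in limma, and Cd163 stayed called in 3 of the 8 DESeq2 fits that left out a library. Haptoglobin (Hp), the plasma protein whose haemoglobin complex CD163 binds, averaged 1243 ± 488 for WT and 999 ± 214 for Cd36KO (DESeq2 adjusted p = 0.644), and its groups overlapped.

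Mrc1 (chr2:14229392-14332057, plus strand) encodes the macrophage mannose receptor CD206, which binds mannosylated glycoproteins and collagen fragments. Its normalized counts were 64.1, 96.8, 80.0 and 32.6 in WT and 25.6, 33.4, 51.1 and 41.2 in Cd36KO, in the same order of libraries. WT replicate 4 lay inside the Cd36KO range, and the other WT libraries above it. The log2 fold change of -0.85 (SE 0.36) did not pass the test (DESeq2 adjusted p = 0.191, exact two-sided permutation p = 0.114). Leaving out WT replicate 1 gave -0.88. Without WT replicate 4 it was -1.08 and passed (DESeq2 adjusted p = 0.0172). Stab1 (chr14:31139013-31168641, minus strand), the clearance receptor stabilin-1 of resident macrophages and sinusoidal endothelium, was at 59.4 ± 16.3 in the WT libraries and 50.0 ± 6.12 in the Cd36KO libraries (SD, n = 4 each; log2 fold change -0.24, 95% interval -0.79 to 0.31, DESeq2 adjusted p = 0.759), and -0.30 without WT replicate 1. Part of its locus is shared with Nt5dc2 on the other strand, and since the strand setting of the counting is not stated, reads there cannot be assigned with certainty.

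Neither of the TAM receptors in the set, Mertk or Axl, passed the adjusted threshold. Mertk (chr2:128698956-128802894, plus strand), the TAM kinase that resident macrophages use to engulf apoptotic cells, had WT values of 99.3, 146, 247 and 108 and Cd36KO values of 96.9, 94.4, 88.0 and 83.1. The groups did not overlap, but WT replicate 1 was barely above the highest Cd36KO library, and the WT spread came mainly from replicate 3. The log2 fold change was -0.72 (SE 0.29, DESeq2 adjusted p = 0.158, exact two-sided permutation p = 0.0286). Without WT replicate 3 it was -0.38 (DESeq2 adjusted p = 0.605), and without WT replicate 1 it was -0.88 (DESeq2 adjusted p = 0.0454). Axl (chr7:25757273-25788705, minus strand), the TAM kinase linked to inflamed tissue and also made by stromal cells, had 56.0, 72.2, 50.6 and 72.2 in WT and 79.1, 66.7, 88.0 and 62.5 in Cd36KO. Only 2 of the 4 Cd36KO libraries exceeded all WT libraries, and the log2 fold change of 0.23 (95% interval -0.25 to 0.72) did not pass the test (DESeq2 adjusted p = 0.728). It was 0.18 without WT replicate 1.

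Mfge8 (chr7:79133768-79149060, minus strand), the milk-fat globule bridging protein that links phosphatidylserine to integrins and is made by stromal cells as well as macrophages, had WT values of 596, 1031, 1428 and 1083 and Cd36KO values of 1156, 963, 1333 and 1304. WT replicate 1 was the lowest of the 8 libraries, and the remaining libraries overlapped. The log2 fold change was 0.20 (95% interval -0.26 to 0.66, DESeq2 adjusted p = 0.759), and 0.011 without WT replicate 1. Among the other CD36-like class B members, Scarb1 (chr5:125277087-125341094, minus strand), the high-density lipoprotein receptor SR-B1, averaged 149 ± 27.4 for WT and 163 ± 12.8 for Cd36KO (SD, n = 4 each; log2 fold change 0.13, 95% interval -0.25 to 0.52, DESeq2 adjusted p = 0.815). Scarb2 (chr5:92441314-92506833, minus strand), the lysosomal membrane protein LIMP-2 that delivers glucocerebrosidase, averaged 389 ± 56.8 and 418 ± 58.5 (log2 fold change 0.10, 95% interval -0.23 to 0.44, DESeq2 adjusted p = 0.836). For both class B genes the whole interval reached no higher than 0.52 on the log2 scale, so a 2-fold rise lay outside it. Without WT replicate 1, Scarb1 was at 0.021 and Scarb2 at 0.072. Msr1 (chr8:39581685-39642673, minus strand), the class A scavenger receptor SR-A, had only 1 to 10 raw counts in each library, too few for an adjusted p. Its interval of -1.16 to 1.85 on the log2 scale spanned both a loss and a rise of 2-fold, and its log2 fold change of 0.34 became -0.013 without WT replicate 1.

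**Figure D2:**
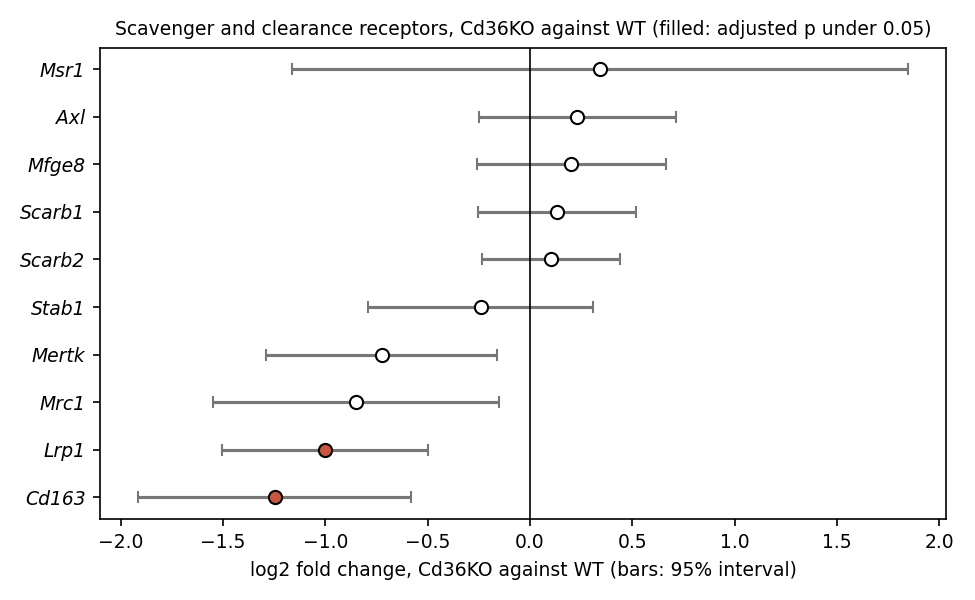
Log2 fold change of each gene, Cd36KO against WT (horizontal axis), with its 95% interval from the DESeq2 fit of 8 libraries. Filled points (Lrp1, -0.999, and Cd163, -1.25) have an adjusted p under 0.05, the intervals of Mertk and Mrc1 lie below 0 without passing the adjusted threshold, and Msr1 has no adjusted p.

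The ligands and partners of these receptors were described from 9 lists of 204 genes without the members, of which 137 had an adjusted p. In all, 4 fell and 1 rose, 3.65% of those tested, which is close to the 2.95% called among all 9619 tested genes. The median log2 fold change was -0.01, the same as over all tested genes (-0.01). Among the called genes, Gas6, App and Gulp1 were lower in Cd36KO and Apoc1 was higher. None of the 5 was called by edgeR or limma. Without WT replicate 1, 8 were called, and without WT replicate 2 or WT replicate 3, 2 were called.

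Gas6, the ligand that joins AXL and MERTK to phosphatidylserine, had WT values of 83.0, 77.3, 61.2 and 86.1 and Cd36KO values of 3.3 (unnumbered), 33.4, 28.6 and 31.3. The highest Cd36KO library was well below the lowest WT library, and the unnumbered library was far below the other Cd36KO libraries. The log2 fold change was -1.66 (SE 0.42, DESeq2 adjusted p = 0.00868), -1.62 without WT replicate 1 and -1.31 without the unnumbered library. The call was lost without WT replicate 2 (DESeq2 adjusted p = 0.0714) and with a replicate block on the numbered libraries (-1.26, 0.0976). Protein S (Pros1), the other TAM ligand, chosen after its values were seen, averaged 48.4 ± 7.52 for WT and 24.3 ± 6.32 for Cd36KO (SD, n = 4 each). Its groups did not overlap, and its log2 fold change of -0.98 was just short of the threshold (DESeq2 adjusted p = 0.0620). Tyro3, the third TAM receptor, had at most 15 counts in a library and no adjusted p. The TAM list had 1 of 5 tested genes lower and 0 higher, with a median log2 fold change of -0.47.

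Of 13 tested LRP1 ligands, 2 fell and none rose (median log2 fold change -0.32). App, the amyloid precursor protein, averaged 242 ± 38.5 for WT and 147 ± 16.8 for Cd36KO (SD, n = 4 each; log2 fold change -0.72, DESeq2 adjusted p = 0.0130), and its groups did not overlap. Without WT replicate 1 the call was lost (-0.61, DESeq2 adjusted p = 0.0606), and App stayed called in 3 of the 8 fits that left out a library. Apoe, the apolipoprotein that carries remnants to LRP1, averaged 8009 ± 2728 and 9077 ± 2070 (DESeq2 adjusted p = 0.798). Gulp1, an engulfment adaptor that binds the tail of LRP1, had 28.1 ± 6.64 in WT and 9.85 ± 4.29 in Cd36KO (log2 fold change -1.53, SE 0.45, DESeq2 adjusted p = 0.0323) and was the only called gene of 40 tested in the engulfment list. It was -1.65 without WT replicate 1 and stayed called (DESeq2 adjusted p = 0.0311), but that was the 1 such call among 5 fits without a library that gave it an adjusted p, and with independent filtering off the adjusted p was 0.0569. Abca1, the cholesterol exporter that also acts in engulfment, was chosen after its values were seen. It averaged 144 ± 44.1 and 86.6 ± 13.3 (DESeq2 adjusted p = 0.111).

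The remaining receptor families gave few calls. Among 14 tested members of the LDL receptor family and its chaperones, 0 were called (median log2 fold change -0.03). The abundant Vldlr averaged 391 ± 55.6 for WT and 360 ± 57.3 for Cd36KO, and Lrp6, a co-receptor of WNT signalling, 211 ± 28.5 and 154 ± 29.4 (SD, n = 4 each; DESeq2 adjusted p = 0.818 and 0.214). Lrp10, chosen after its values were seen, was the gene of that family whose Cd36KO values all exceeded WT, 132 ± 19.1 against 85.1 ± 18.0 (DESeq2 adjusted p = 0.107). Of 6 tested other scavenger receptors 0 were called, with Cd68 at 18.7 ± 1.82 and 18.8 ± 4.26, and Olr1 was listed at 0 in all 8 libraries. The 18 tested apoptotic cell receptors and bridges, the 6 mannose receptor and haemoglobin genes and the 28 lysosomal genes around Scarb2 also gave 0 calls, with medians of 0.04, -0.17 and 0.02. For 2 of the 18 apoptotic cell genes every Cd36KO library lay above every WT library, and for 0 below. Over all tested genes 4.83% lay wholly above and 3.93% wholly below. In the list of HDL exchange and cholesterol efflux around Scarb1, Apoc1, a small apolipoprotein of remnants and HDL, rose from 899 ± 224 to 1716 ± 394 (log2 fold change 0.93, SE 0.22, DESeq2 adjusted p = 0.00296), and it was the 1 call among 14. It was 0.85 without WT replicate 1 (DESeq2 adjusted p = 0.00425).

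**Figure D3:**
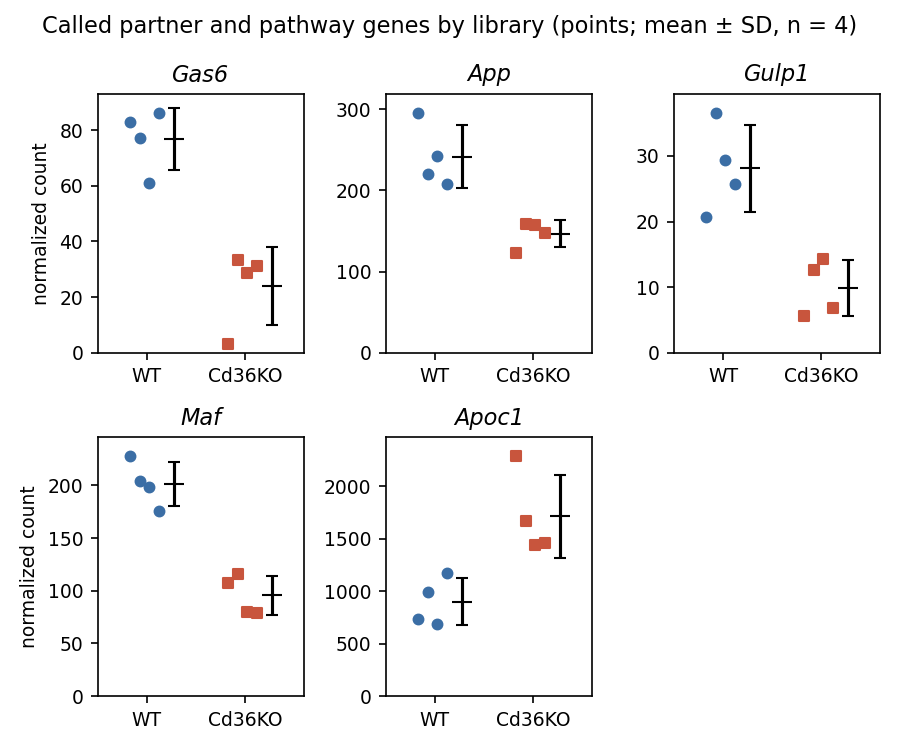
Normalized counts (vertical axes, from 0) of 5 called ligands, adaptors and macrophage genes in the 4 WT (circles) and 4 Cd36KO (squares) libraries, with mean ± SD. Gas6, App, Gulp1 and Maf were lower in every Cd36KO library than in any WT library, and Apoc1 was higher.

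Macrophage markers were set beside the members. The 23 pan-macrophage markers summed to 1054 to 1561 normalized counts in WT and 1201 to 1665 in Cd36KO (exact two-sided permutation p = 0.400), and 0 of 17 tested were called. Adgre1 (F4/80) and Trem2 were near the floor, with at most 10 and 3 raw counts in a library. Per 1000 counts of these markers, Lrp1 went from 168 ± 19.5 to 79.7 ± 30.6, Cd163 from 58.8 ± 12.6 to 23.4 ± 5.98 and Mertk from 113 ± 30.3 to 64.5 ± 8.29 (SD, n = 4 each), and each of the 3 kept groups that did not overlap (exact two-sided permutation p = 0.0286). With the macrophage score as a covariate the log2 fold changes were -0.997 for Lrp1 (DESeq2 adjusted p = 0.0162) and -1.29 for Cd163 (0.00296). Both falls were as large in that fit as without the score.

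The list of resident and perivascular macrophage markers, which shares no gene with the members, had 12 of 13 tested genes below 0, a median log2 fold change of -0.39 and 2 calls, Gas6 and Maf. Over all tested genes 50.8% lay below 0 and 2.95% were called. Gas6 was already counted among the clearance genes above, and the list was chosen with earlier results of these data known. The summed level of the list was 1517 to 2423 in WT and 1250 to 1563 in Cd36KO, so the groups overlapped (exact two-sided permutation p = 0.0571). Vsig4 was listed at 0 throughout. Maf, a transcription factor of resident macrophages also made by endothelial and other cells, had WT values of 228, 204, 199 and 176 and Cd36KO values of 107, 116, 79.8 and 79.3. It was lower in every Cd36KO library, with a log2 fold change of -1.08 (SE 0.20, DESeq2 adjusted p = 8.09e-05, edgeR adjusted p = 0.0394), and -1.02 without WT replicate 1. Without that replicate 4 genes of the list were called. Several of the other genes on the list, such as Igf1, Selenop and Wwp1, are made by many cell types, and the most abundant of them did not pass (Selenop 676 ± 226 and 517 ± 100, DESeq2 adjusted p = 0.465).

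Markers of other tissue components were set beside these values. Stromal fibroblast markers summed to 5653 to 8612 in WT and 3718 to 4758 in Cd36KO, with 3 of 16 tested called lower (Col1a2, Dpt and Gsn) by DESeq2 and 1 by edgeR. Brown adipocyte markers summed to 19283 to 25264 in WT and 32687 to 41471 in Cd36KO, with 4 of 13 called higher (Ucp1, Cidea, Cox7a1 and Cox8b) by DESeq2 and 0 by edgeR. White adipocyte and depot markers summed to 1201 to 6138 in WT and 926 to 1366 in Cd36KO, with 8 of 9 tested called lower by DESeq2 and 4 by edgeR, and in WT replicate 1 they were at the Cd36KO level. Endothelial markers overlapped (2622 to 3695 and 2903 to 4161, 0 of 16 called), as did smooth muscle and pericyte markers (1135 to 2062 and 945 to 1309, 0 of 9), pan-adipocyte markers (36717 to 68452 and 42162 to 44935, 0 of 10) and lipid-associated macrophage markers (13074 to 24409 and 16993 to 20908, 0 of 10). The lipid-associated sum was far above the pan-macrophage sum (1054 to 1561 in WT), and Trem2 was near the floor. It was therefore not read as a level of lipid-associated macrophages. Skeletal muscle markers summed to 1402 to 85899 in WT and 490 to 10759 in Cd36KO. All 17 had a log2 fold change below 0 (median -3.05) and 10 an unadjusted DESeq2 p under 0.05, but 0 passed the adjusted threshold. With the white fat score as a covariate, Lrp1 was at -0.93 (DESeq2 adjusted p = 0.190) and Mertk at 0.04 (0.972), beside the value of Cd163 given above. In that fit the score and the genotype largely coincide, since 3 of the 4 WT libraries carry the high values. With the muscle score as a covariate, Lrp1 was at -1.49 (DESeq2 adjusted p = 6.17e-05) and Cd163 at -1.55 (0.0263). No fit with a fibroblast score was made, and the part of fibroblast content in these results was not tested.

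**Figure D4:**
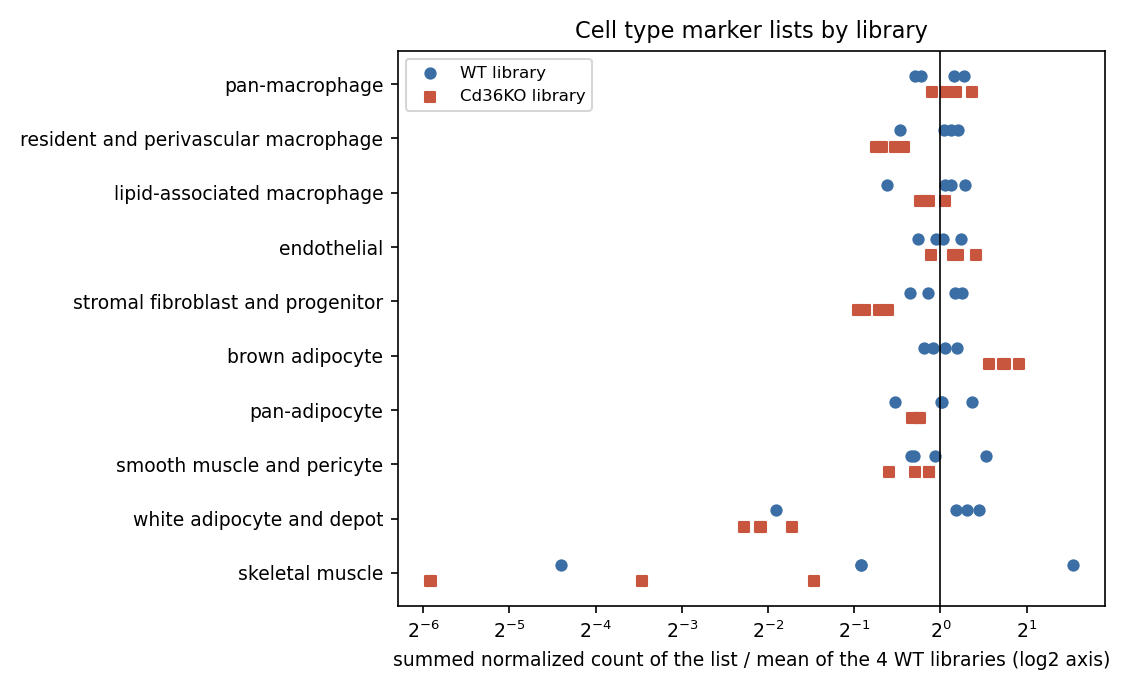
Summed normalized count of each cell type marker list in each library, divided by the mean of the 4 WT libraries (horizontal log2 axis), for WT (circles) and Cd36KO (squares). Pan-macrophage and endothelial markers overlapped, stromal and brown adipocyte markers did not, and WT replicate 1 lay with the Cd36KO libraries for white adipocyte markers and far above all libraries for muscle.

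The members did not vary as a single block. Over the 8 libraries, log2 levels of Cd163 and Mertk had a Pearson r of 0.92, which was 0.88 after each genotype mean was removed. Lrp1 and Cd163 had an r of 0.80, which dropped to 0.38 once genotype means were removed. Mrc1 went with Stab1 (0.81 both ways), Scarb1 with Mfge8 (0.84 and 0.82), and Scarb2 ran opposite to Mrc1 (-0.81 and -0.85). These are descriptions over 8 points that share the genotype difference and size factors. With 5528 genes compared (those averaging 50 or more normalized counts), the closest to Lrp1 were Itsn1, Cct2, Pja2, Kmt5b and Fry (r of 0.96 to 0.98), and the closest to Cd163 were Pex3, Scn7a, Rora, Smarca2 and Slc27a1 (0.97 to 0.99).

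**Figure D5:**
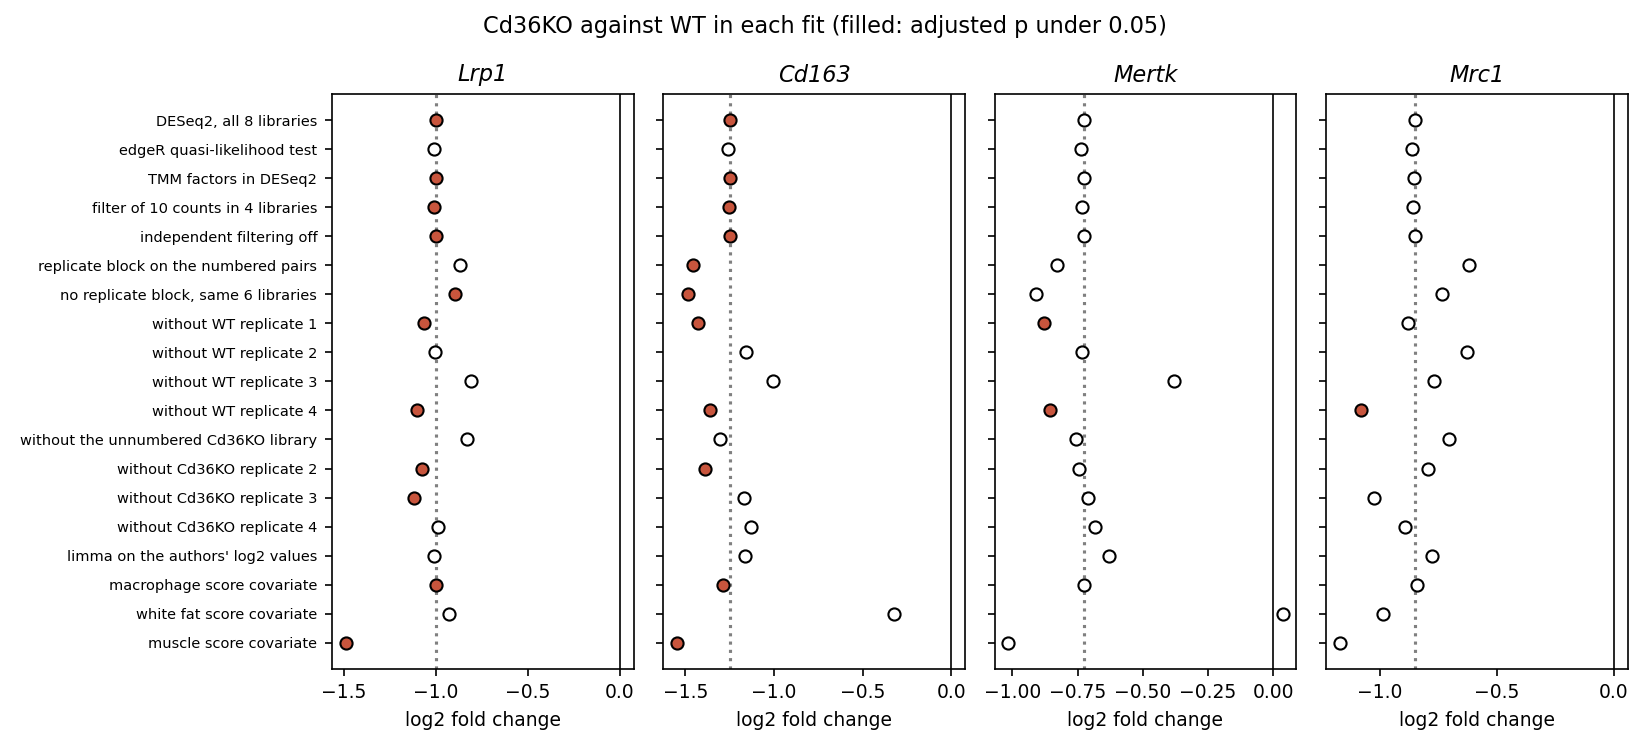
Log2 fold change (horizontal axes) of Lrp1, Cd163, Mertk and Mrc1 in each fit (rows), filled where the adjusted p was under 0.05 and with a dotted line at the DESeq2 value of all 8 libraries. Lrp1, Cd163 and Mrc1 stayed below 0 in every fit shown, Mertk reached 0.04 with the white fat score, and calls depended on the fit.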

How the data were processed

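Bulk RNA-seq of BAT was available for 4 WT and 4 Cd36KO libraries, grouped by the sample labels. Per the study's methods, the authors had a sequencing service trim single-end reads, align them to mm10 with STAR 2.6.0a and count them per gene with HTSeq-count 0.9.1. GEO's tool list names other programs (Trimmomatic and HISAT2) for these samples, so the aligner is not settled. The deposited values are raw whole-number counts per gene. The deposited log2 values were found to equal log2 of count over size factor plus a pseudocount of 1, and were used for limma alone. Read coverage along transcripts, strand setting and molecular identifiers are not given in the sources used here, so levels were not compared between genes, and the limits from depth cover counting error only.

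Identifiers were matched to GENCODE M21 (GRCm38; 30934 of 31053), and 17367 had a count. Of 351 listed genes 5 were not matched. DESeq2 1.42.0 (R 4.3.3; Wald test, genotype as the sole term, independent filtering) was the main test, with Benjamini-Hochberg adjustment over all genes and a threshold of 0.05. Single values were also tested by an exact two-sided permutation test over 70 arrangements (SciPy 1.17.1). Alternatives were edgeR 4.0.16, limma 3.58.1, other scaling and filters, a replicate block, leaving out each library, and macrophage, white fat and muscle scores as covariates. In simulated counts (200 genes shifted 3-fold in Cd36KO against WT), 93.5% of shifted genes were recovered by DESeq2 (8361 genes, 8.78% of calls false), 93.5% by edgeR (9935 genes, 3.61% false) and 87% by limma (16860 genes, 3.87% false). Every simulated gene had the same dispersion, only well-counted genes were shifted, and no member fell by as much as 3-fold. These rates therefore do not describe how well falls like those of the members would be found. Named genes are the members, Cd36, and in each list the called and the 3 most abundant genes, plus the 5 genes most like each called member. Not all of the abundant genes are printed, the called white adipocyte markers are given as a count, and 1 called gene of the clearance lists, included in the counts, is not reported here. Members and lists were chosen with earlier results of these data known. Promoter windows are from RefSeq, and figures were drawn with matplotlib 3.10.9.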

Additional observations from a re-analysis of the deposited data

Results flagged for a closer look

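In 2 of 40 groups examined, 1 library lay far from the rest, which is the number chance gives at 1 in 20. The normalized count of Scarb2 in WT replicate 4 was 474, while WT replicates 1 to 3 had 353 to 365. The summed skeletal muscle markers of WT replicate 1 were 85899, while WT replicates 2 to 4 had 1402 to 15694.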

How the results depend on the processing

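Members called were 2 in DESeq2 and 0 in edgeR or limma, and 0 to 4 when a library was left out, all of them lower: 0 without WT replicate 2, WT replicate 3, the unnumbered Cd36KO library or Cd36KO replicate 4, 1 without Cd36KO replicate 3, and 4 without WT replicate 4. Clearance pathway genes called were 5, and 0 in edgeR and limma, 3 with TMM factors, 8 with a filter of 10 counts in 4 libraries, 3 with the macrophage score, 14 with the white fat score and 2 to 8 when a library was left out. All genes called were 284, and 14 in edgeR, 8 in limma, 171 without independent filtering, 606 with the white fat score, 178 with the muscle score 69 to 507 when a library was left out and 113 without the unnumbered Cd36KO library. Resident markers called were 2, and 1 in edgeR and limma, 4 in the 6 numbered libraries and 1 to 4 when a library was left out.

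Lrp1 was -1.01 in edgeR (adjusted p = 0.108) and in limma (0.127), -0.93 with the white fat score, and -1.12 to -0.81 when a library was left out (-0.83 without the unnumbered one, DESeq2 adjusted p 0.00277 to 0.0972, called in 4 of 8). Cd163 was -1.26 in edgeR (adjusted p = 0.110), -1.16 in limma (0.170), -0.33 with the white fat score, and -1.43 to -1.003 when a library was left out (-1.30 without the unnumbered one, DESeq2 adjusted p 0.00131 to 0.163, called in 3 of 8). With the white fat score Mfge8 was called higher (1.13, DESeq2 adjusted p = 0.00751), so 1 member was called higher and 0 lower, and Mertk turned to 0.0358. With the muscle score Msr1 was -0.18 and Mfge8 -0.0365. Without a library, Msr1 ran from -0.0128 to 0.82, Mrc1 from -1.08 to -0.63 and Mertk from -0.88 to -0.38. The cause was not tested. Maf was called in all 18 alternatives, Apoc1 in 16, Gas6 in 14 and App in 8. With the block App was lost (DESeq2 adjusted p = 0.643, and 0.244 in the same 6 libraries without it), as was Gas6 (0.0976 and 0.0122). Gulp1 was called in 3 of the 12 that gave it an adjusted p.

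Same-numbered libraries correlated at -0.13, 0.42 and 0.14 in their deviations, so the numbers were not taken as pairs. With the replicate block on the 3 numbered pairs, 1 member was called (lower), Lrp1 was -0.87 (DESeq2 adjusted p = 0.0580), Scarb1 -0.0070 and Scarb2 -0.0138. The same 6 libraries without the block gave Scarb1 -0.0101 and Scarb2 -0.0226, so that shift came with the fewer libraries, whereas Lrp1 stayed called there (-0.90, DESeq2 adjusted p = 0.0230) along with Cd163, so its loss came with the block. Depth limits Msr1, Tyro3 and the defining macrophage markers.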
